A study of Arabidopsis thaliana with 60 samples.

Results

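The effect of dexamethasone (DEX) after 6 h of auxin was examined in Arabidopsis thaliana seedlings of the line pGATA23::slr-1-GR, here called slr-1. The 6 libraries were chosen by their labels, 3 of slr-1 with DEX at 6 h and 3 of slr-1 with the solvent DMSO at 6 h, out of 60 libraries in all. The fusion gene holds slr-1, a stabilised form of the repressor IAA14, joined to a glucocorticoid receptor (GR) domain and driven by the promoter of GATA23, which is known for its activity in the pericycle cells that found lateral roots. Both groups carry this fusion and both received the same auxin. Seedlings were moved to 10 µM NPA, a blocker of auxin transport, 4 days after germination and stayed on it for 22 h. They then had 2 h on NPA with 10 µM DEX or with DMSO, and after that 10 µM of the auxin IAA with DEX or with DMSO for 6 h. Each sample pooled about 200 segments of the lower 2/3 of the root. No plants without a fusion gene were given DEX, so an effect of DEX itself and that of the fusion cannot be told apart. The same comparison was also set beside slr-1 at 4 h (3 DEX and 3 DMSO libraries) and beside the line pGATA23::shy2-2-GR at 6 h (3 and 3), here shy2-2, which carries stabilised IAA3 in place of IAA14.

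Aux/IAA proteins such as IAA14 bind auxin response factors (ARFs) and keep their target genes off, and auxin normally has them degraded. The slr-1 and shy2-2 forms resist that degradation, and the GR domain holds the fusion protein out of the nucleus until DEX is present. Lateral roots begin when auxin, through ARF7 and ARF19, turns on LOB-domain (LBD) genes in xylem-pole pericycle cells, which then divide to form a primordium.

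The DEX libraries held 29236599 to 39936509 counts on genes and the DMSO libraries 45451513 to 50385688. The file names place all 3 DEX libraries in one sequencing run and all 3 DMSO libraries in another, so run and DEX cannot be told apart at 6 h. The labels do not say that replicates were separate cultures, so the p-values reflect how far these libraries scatter, and that scatter may be technical. Root hair markers summed to 242 to 354 CPM, the reads of a gene scaled to a common library size, in DEX and 164 to 517 CPM in DMSO, and 0 of 9 passed the test, or 1 without DMSO replicate 1 or DMSO replicate 3. Markers of shoot and photosynthesis summed to 71.8 to 250 CPM in DEX and 69.9 to 443 CPM in DMSO, again with 0 of 11 past the test. The mean log2(CPM + 1) of photosynthesis genes lay between 1.82 and 4.15 in the DEX libraries and was 1.76, 2.15 and 5.09 in the DMSO libraries, so DMSO replicate 3 was the highest of the 6.

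Of 21864 genes tested, 6397 (29.3%) differed between DEX and DMSO at an adjusted p under 0.05 in edgeR's quasi-likelihood test, 2699 of them higher in DEX (12.3%) and 3698 lower (16.9%). These shares are the background for each count of list members given below. Past a log2 fold change of 1 were 554 higher (2.53%) and 1237 lower (5.66%) genes. The median log2 fold change over all genes was 0.06. The groups did not overlap in CPM for 40.5% of genes. A gene is called higher or lower here only where it passed that test. Errors of log2 fold changes are standard errors with n = 3 libraries per group, and their spread was estimated over all groups of the fit.

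**Figure D1:**
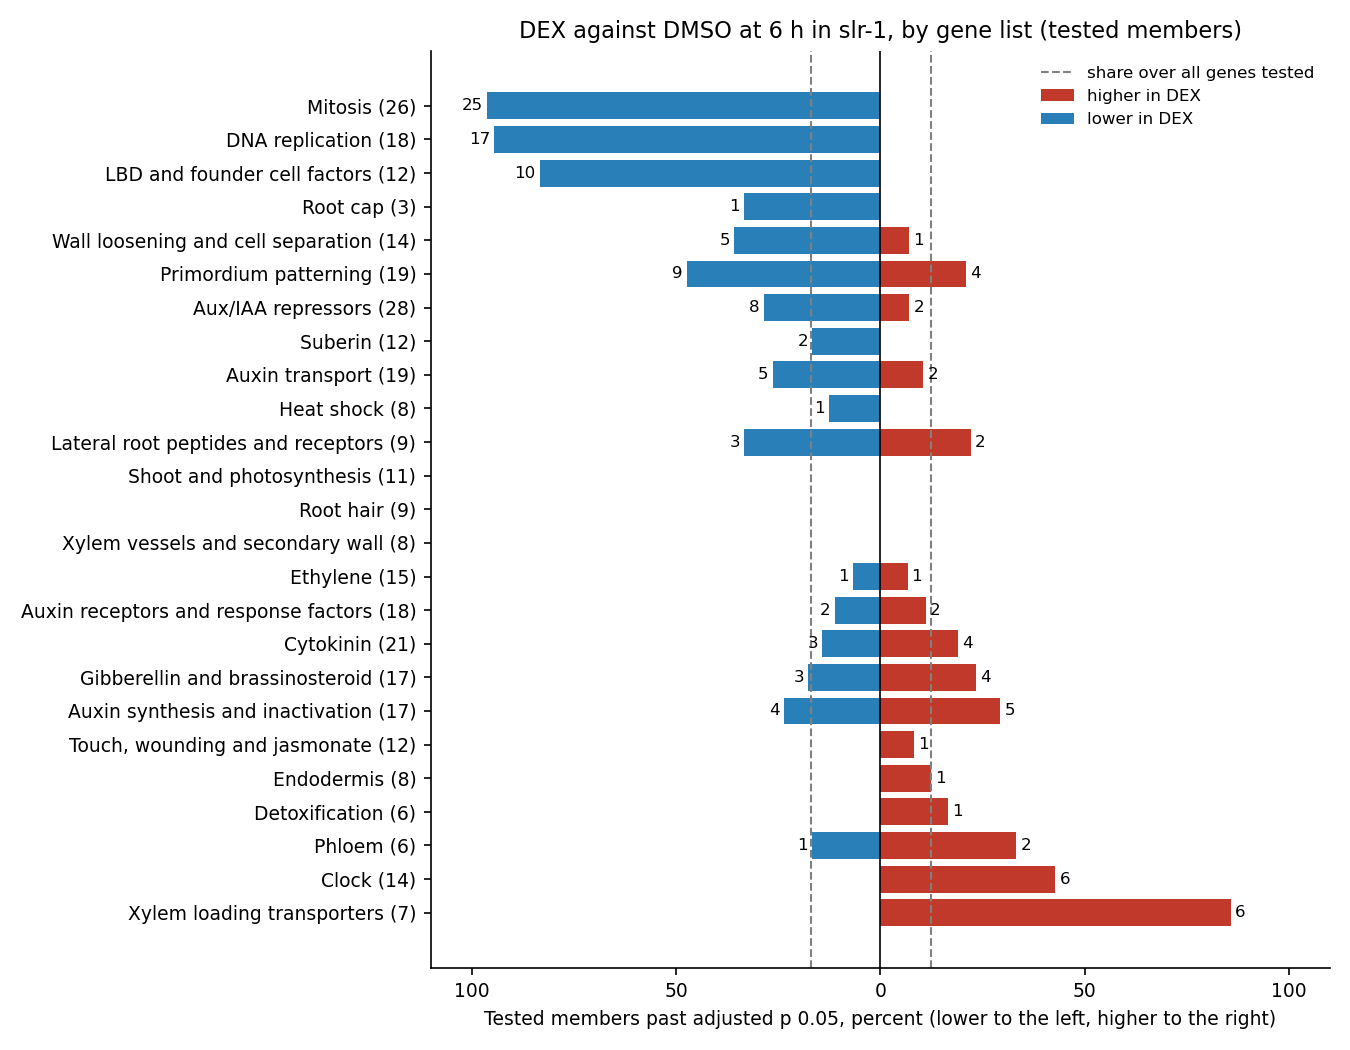
Share of the tested members of each gene list that were higher (red, to the right) or lower (blue, to the left) in DEX than in DMSO at 6 h in slr-1, in percent, with the number of genes at each bar and the number tested in brackets; dashed lines mark the shares over all genes (12.3% higher, 16.9% lower). Mitosis, DNA replication and founder cell lists reach far to the left, and the xylem loading transporters far to the right.

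The gene of the fusion's repressor, IAA14 (AT4G14550), had 93.5, 87.8 and 88.3 CPM in the DEX libraries, against 140, 139 and 116 CPM in the DMSO libraries. It was lower in DEX by a log2 fold change of -0.55 ± 0.09 (adjusted p = 5.6e-05). Reads of the fusion and of the native gene count toward the same locus and cannot be told apart. IAA3 had 66.3, 83.7 and 97.2 CPM in DEX and 114, 136 and 100 CPM in DMSO, with a log2 fold change of -0.50 ± 0.20 that did not pass (adjusted p = 0.065). It passed in 4 of the 14 alternative fits.

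Did DEX lower the genes that found a lateral root? Of 12 genes of the LBD and founder cell list, 10 were lower and 0 higher, with a median log2 fold change of -1.78. GATA23 (AT5G26930, chromosome 5, 9479424 to 9480200, plus strand in RefSeq's TAIR10.1), a GATA factor of founder cells and the source of the fusion's promoter, had 0.486, 0.531 and 0.518 CPM in DEX. In DMSO it had 22.9, 32.3 and 23.2 CPM. The lowest DMSO library thus lay far above every DEX library, and the log2 fold change was -5.67 ± 0.24 (adjusted p = 3.3e-14). PUCHI (AT5G18560, chromosome 5, 6164526 to 6166040, minus strand), an AP2 factor that patterns the young primordium, had 10.88, 10.11 and 11.12 CPM in DEX, against 119, 98.2 and 79.6 CPM in DMSO, a log2 fold change of -3.21 ± 0.17 (adjusted p = 1.6e-12). The cytokinin response factor gene CRF3 had 19.99, 16.08 and 17.33 CPM in DEX and 108, 103 and 98.1 CPM in DMSO (-2.54 ± 0.12, adjusted p = 6.7e-14), and its relative CRF2 stood at -1.51 ± 0.11.

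Among the LOB-domain genes the size of the difference varied. LBD33 had 2.66, 2.82 and 1.60 CPM in DEX and 22.8, 25.1 and 15.1 CPM in DMSO, a log2 fold change of -3.16 ± 0.26 (adjusted p = 2.6e-09). LBD17 followed at -2.31 ± 0.17. LBD16, which acts directly downstream of ARF7 and ARF19 in founder cells, had 19.05, 17.64 and 17.26 CPM in DEX and 75.1, 75.3 and 74.1 CPM in DMSO (-2.06 ± 0.12, adjusted p = 1.0e-11). LBD18 and LBD29, which act in the same pathway, were lower by less. LBD18 had 77.4, 69.2 and 69.1 CPM in DEX, against 172, 164 and 122 CPM in DMSO (-1.09 ± 0.20, adjusted p = 0.00022). LBD29 had 98.2, 90.8 and 80.2 CPM in DEX, against 160, 156 and 133 CPM in DMSO (-0.74 ± 0.16, adjusted p = 0.0011). None of these LBD genes overlapped between the groups. The members that did not pass, named after their values were seen, were LBD14 (-0.77, adjusted p = 0.17) and FEZ (0.20, adjusted p = 0.41).

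**Figure D2:**
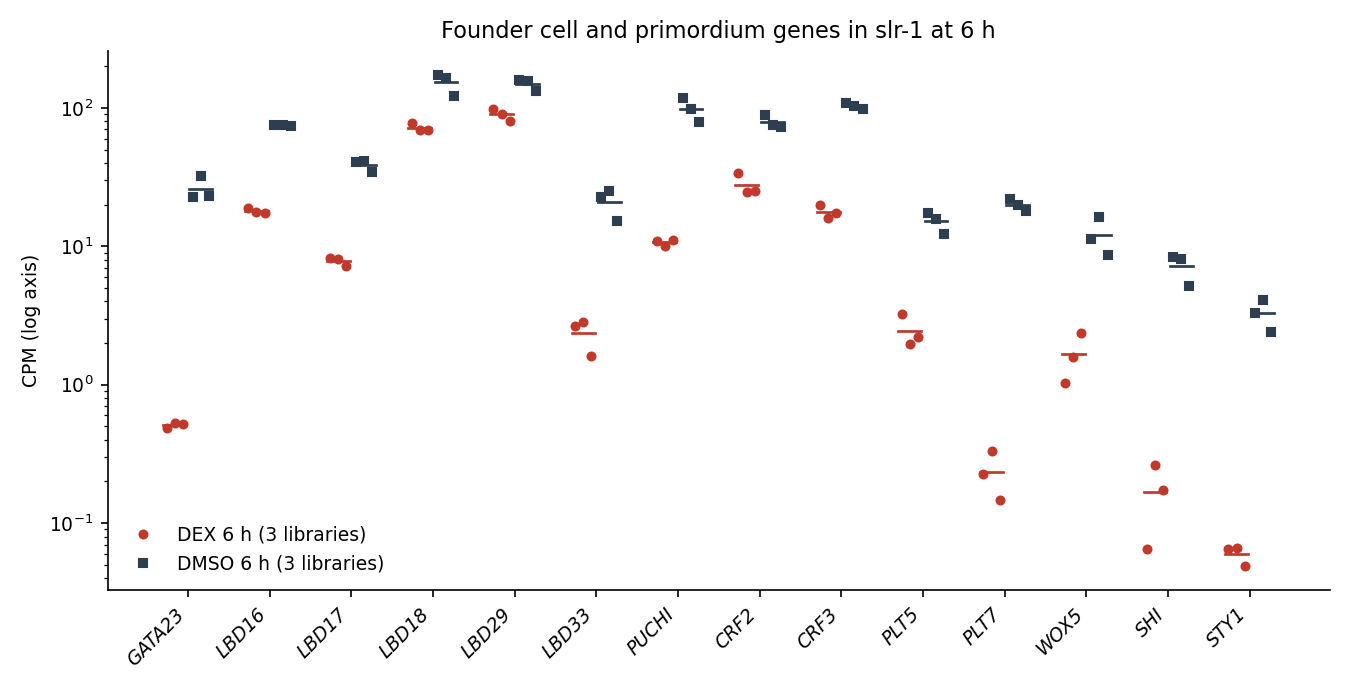
CPM of founder cell and primordium genes in each of the 3 DEX (red circles, left) and 3 DMSO libraries (dark squares, right) of slr-1 at 6 h, on a log axis, with a bar at each mean. The 14 genes shown were each called lower, and some other members called lower, such as MAKR4 and SRS5, are not drawn. List members that did not pass, such as LBD14 and FEZ, or were higher, such as TMO5, are left out as well. Each gene shown lies lower in every DEX library, for example LBD29 (80.2 to 98.2 CPM in DEX, 133 to 160 CPM in DMSO) and GATA23 (0.486 to 0.531 and 22.9 to 32.3 CPM).

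The response factors that act upstream of the LBD genes did not pass the test. ARF7 had 119, 94.4 and 108 CPM in DEX and 102, 78.1 and 93.4 CPM in DMSO, with a log2 fold change of 0.23 ± 0.13 (adjusted p = 0.20). ARF19 had 223, 186 and 205 CPM in DEX and 241, 188 and 223 CPM in DMSO (-0.09 ± 0.11, adjusted p = 0.60). The groups overlapped for both genes. Of 18 auxin receptors and response factors, 2 were higher and 2 lower; the higher were 4 without DEX replicate 1, DEX replicate 2 or DMSO replicate 1, and 6 with a filter of 1 CPM in 3 libraries. Lower were ARF4 (-0.99 ± 0.11) and ARF3 (-1.12 ± 0.18), and higher the receptor genes AFB2 (0.38 ± 0.07) and AFB3 (0.29 ± 0.09), the last not past the test when only the compared groups were fitted.

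Of 28 Aux/IAA repressor genes 8 were lower and 2 higher, with a median of -0.18, a share (35.7%) not far from that over all genes. IAA19 (AT3G15540, chromosome 3, 5264001 to 5265695, plus strand) was the furthest past the test. It had 207, 191 and 200 CPM in DEX, against 522, 528 and 391 CPM in DMSO, a log2 fold change of -1.27 ± 0.14 (adjusted p = 2.1e-07). IAA5 had 16.75, 17.58 and 19.43 CPM in DEX, against 40.0, 35.2 and 29.7 CPM in DMSO (-0.96 ± 0.26, adjusted p = 0.0063). IAA13 (-0.72 ± 0.15), IAA26 (-0.66 ± 0.16) and IAA12 (-0.39 ± 0.10) were lower by less. IAA28, which is known to act in priming of founder cells, went the other way: 142, 163 and 144 CPM in DEX and 61.9, 78.8 and 93.4 CPM in DMSO (0.94 ± 0.19, adjusted p = 0.00037).

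Upstream windows of 250 bases are shown for 4 of the auxin-responsive genes above and below, because they hold the hexamers to which ARFs are known to bind. Sequences are from RefSeq's TAIR10.1, run 5′ to 3′ on the gene's own strand and end next to the annotated start; capitals mark TGTCTC or TGTCGG, on either strand.
GATA23, chr5:9479174-9479423, plus strand: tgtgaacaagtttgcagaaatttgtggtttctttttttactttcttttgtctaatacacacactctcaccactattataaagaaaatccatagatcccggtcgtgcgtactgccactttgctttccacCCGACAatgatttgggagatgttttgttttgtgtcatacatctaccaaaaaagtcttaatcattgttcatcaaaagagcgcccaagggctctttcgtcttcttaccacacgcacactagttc
PUCHI, chr5:6166041-6166290, minus strand: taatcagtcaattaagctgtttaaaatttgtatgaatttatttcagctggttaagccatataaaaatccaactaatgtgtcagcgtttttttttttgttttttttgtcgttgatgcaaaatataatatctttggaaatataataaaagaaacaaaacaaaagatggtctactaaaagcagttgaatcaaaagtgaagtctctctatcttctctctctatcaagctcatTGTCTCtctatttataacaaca
PLT7, chr5:26185343-26185592, plus strand: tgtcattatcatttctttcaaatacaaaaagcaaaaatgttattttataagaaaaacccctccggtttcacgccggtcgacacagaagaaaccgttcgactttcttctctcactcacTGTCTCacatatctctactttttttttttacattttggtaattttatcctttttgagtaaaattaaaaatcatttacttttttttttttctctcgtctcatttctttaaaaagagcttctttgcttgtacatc
IAA19, chr3:5263751-5264000, plus strand: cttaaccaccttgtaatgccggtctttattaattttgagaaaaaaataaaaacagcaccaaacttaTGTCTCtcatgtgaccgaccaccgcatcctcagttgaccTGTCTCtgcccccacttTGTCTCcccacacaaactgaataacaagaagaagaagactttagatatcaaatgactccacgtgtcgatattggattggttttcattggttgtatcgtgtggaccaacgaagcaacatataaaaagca
The single match in GATA23 begins 122 bases before the start and reads TGTCGG on the opposite strand; those of PUCHI and PLT7 begin 22 and 133 bases before it, and the 3 of IAA19 at 184, 145 and 128 bases. One or both hexamers were found in 14.9% of the windows of all tested genes, in 16.1% of the 1235 windows of genes lower by a log2 of 1 or more and in 13.4% of the 554 of genes higher by as much. They were found in 13 of 28 Aux/IAA windows (46.4%) and in 4 of 12 of the LBD and founder cell list (33.3%). A match describes these letters and is not a measured binding site.

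Genes that pattern the primordium and its meristem went both ways: of 19 listed genes 9 were lower and 4 higher. PLT7 (AT5G65510, chromosome 5, 26185593 to 26189571, plus strand), a PLETHORA factor that acts in primordium formation together with PLT3 and PLT5, had 0.227, 0.332 and 0.148 CPM in DEX. In DMSO it had 21.9, 19.9 and 17.8 CPM, so the log2 fold change was -6.42 ± 0.31 (adjusted p = 1.7e-13). PLT5 had 3.24, 1.96 and 2.19 CPM in DEX and 17.5, 15.7 and 12.2 CPM in DMSO (-2.62 ± 0.28, adjusted p = 1.0e-07). SHI, STY1 and SRS5, zinc-finger factors of a family that is known to promote local auxin synthesis, stood below 1 CPM in every DEX library, while LRP1 of the same family, named after its value was seen, was lower by less (-1.02 ± 0.19). SHI had 0.0648, 0.265 and 0.173 CPM in DEX and 8.39, 8.07 and 5.17 CPM in DMSO (-5.40 ± 0.46). STY1 had 0.0648, 0.0663 and 0.0493 CPM in DEX and 3.29, 4.13 and 2.40 CPM in DMSO (-5.72 ± 0.65). SRS5 had 0.162, 0.730 and 0.690 CPM in DEX and 13.75, 17.39 and 5.17 CPM in DMSO (-4.50 ± 0.57). DMSO replicate 3 was the lowest of the DMSO libraries in SHI, STY1 and SRS5.

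WOX5, the homeobox gene that marks the quiescent centre, had 1.04, 1.59 and 2.37 CPM in DEX, against 11.3, 16.3 and 8.65 CPM in DMSO, a log2 fold change of -2.84 ± 0.32 (adjusted p = 2.4e-07). The 4 higher members, named after their values were seen, were TMO5 (0.83 ± 0.14), T5L1 (0.69 ± 0.13), LHW (0.45 ± 0.08) and ATHB8 (0.40 ± 0.11), all known from vascular patterning. TMO5 had 23.03, 23.28 and 26.92 CPM in DEX and 13.2, 13.9 and 14.2 CPM in DMSO. Of 9 signal peptides and receptors of lateral roots, 3 were lower, GLV6 (-1.64 ± 0.21), IDA (-2.31 ± 0.50) and ACR4 (-0.71 ± 0.15), and 2 higher, or 1 without DEX replicate 1, DEX replicate 3 or DMSO replicate 2.

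Cell cycle genes were the lists with the largest share of calls. Of 18 DNA replication genes 17 were lower and 0 higher (median -1.19), and of 26 mitosis genes 25 were lower and 0 higher (median -1.83). In the replication list RNR1, a subunit of ribonucleotide reductase, had 39.9, 42.8 and 51.9 CPM in DEX and 160, 136 and 119 CPM in DMSO (-1.62 ± 0.15, adjusted p = 1.1e-08). MCM6 (AT5G44635, chromosome 5, 18006212 to 18010667, minus strand), part of the replicative helicase, had 6.77, 9.45 and 10.7 CPM in DEX and 40.0, 35.6 and 28.7 CPM in DMSO (-1.95 ± 0.21, adjusted p = 1.1e-07). Its partners MCM7 (-1.37 ± 0.12) and MCM4 (-1.20 ± 0.15), the polymerase alpha subunit POLA2 (-1.17 ± 0.11) and TSO2, the small reductase subunit (-1.84 ± 0.21), were lower as well. The one member that did not pass, named after its value was seen, was CDC6 (-0.43, adjusted p = 0.089).

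In the mitosis list the largest difference was that of FLP, a MYB factor that restrains late divisions. It had 21.4, 16.4 and 19.2 CPM in DEX and 232, 271 and 226 CPM in DMSO (-3.68 ± 0.17, adjusted p = 5.5e-14). Its relative MYB88 stood at -1.33 ± 0.12, so both listed MYB genes, which are known to limit division, were lower at 6 h, as the cyclins of this list were. Both were already lower at 4 h (FLP -3.14, MYB88 -0.70), when most mitosis genes did not pass. CDKB2;1, a kinase of the G2 to M transition, had 10.0, 13.9 and 12.6 CPM in DEX and 65.1, 77.5 and 46.2 CPM in DMSO (-2.37 ± 0.17, adjusted p = 3.4e-10). CYCA2;4 had 8.71, 8.75 and 8.53 CPM in DEX and 26.6, 26.3 and 21.7 CPM in DMSO (-1.52 ± 0.10, adjusted p = 6.9e-11). CYCB1;1 (AT4G37490, chromosome 4, 17621886 to 17624308, minus strand), a mitotic cyclin, had 1.85, 3.65 and 4.41 CPM in DEX and 13.7, 16.5 and 8.01 CPM in DMSO (-1.94 ± 0.32, adjusted p = 4.9e-05). CDKB1;1, which acts in the formative divisions, had 6.80, 8.72 and 8.43 CPM in DEX and 16.8, 17.3 and 10.2 CPM in DMSO (-0.89 ± 0.22, adjusted p = 0.0035). AUR3 did not pass (-0.42, adjusted p = 0.052; named after its value was seen). Summed over the list, mitosis genes reached 185 to 231 CPM in DEX and 674 to 1042 CPM in DMSO, the lowest DMSO sum being that of replicate 3, the library highest in photosynthesis genes. Without that library the count was 25 of 26; its part in the result was not tested otherwise. In bulk samples, fewer dividing cells and less RNA per cell cannot be told apart.

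Windows upstream of a mitotic and a replication gene are shown for the motifs of these phases, the core AACGG of the mitosis-specific activator element and the E2F site TTTCCCGC, in capitals where they occur on either strand.
CYCB1;1, chr4:17624309-17624558, minus strand: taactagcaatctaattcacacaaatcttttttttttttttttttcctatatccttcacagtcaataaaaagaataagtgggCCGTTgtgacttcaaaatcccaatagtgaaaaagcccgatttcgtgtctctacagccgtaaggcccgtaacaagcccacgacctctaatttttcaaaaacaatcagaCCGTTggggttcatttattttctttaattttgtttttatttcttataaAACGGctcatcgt
MCM6, chr5:18010668-18010917, minus strand: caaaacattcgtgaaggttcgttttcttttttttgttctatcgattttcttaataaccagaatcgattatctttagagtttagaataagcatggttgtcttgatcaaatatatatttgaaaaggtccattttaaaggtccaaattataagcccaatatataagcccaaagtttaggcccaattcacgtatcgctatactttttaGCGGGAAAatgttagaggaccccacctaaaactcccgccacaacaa
In CYCB1;1 the 3 matches begin 168, 61 and 13 bases before the start, the last on the gene's own strand, and the single match of MCM6 begins 46 bases before it. AACGG was found in 15 of 26 mitosis windows (57.7%), in 29.96% of windows of genes lower by a log2 of 1 or more, in 14.3% of those higher by as much and in 21.6% of all. TTTCCCGC was found in 6 of 18 replication windows (33.3%), in 2.02% of the lower, in 0.181% of the higher and in 0.616% of all.

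Was the effect the same 2 h earlier? At 4 h in slr-1, where the DEX and DMSO libraries came from the same 2 runs as at 6 h, 1274 genes were higher (5.83%) and 2622 lower (12%). The mean log2(CPM + 1) of photosynthesis genes at 4 h was 3.04, 2.15 and 4.65 in DEX and 1.66, 2.01 and 2.22 in DMSO. Shoot and photosynthesis markers had a median log2 fold change of 3.48 at 4 h and -0.47 at 6 h, with 0 of 11 past the test at either time. The part of this in a comparison of the times was not tested. Where the runs differ by an equal log2 amount at 4 h and at 6 h, that amount drops out once the 4 h effect is subtracted. In that difference 87 of 21864 genes passed (0.398%), 7 (0.032%) with a more positive and 80 (0.366%) with a more negative effect at 6 h, and 1008 (4.61%) had an unadjusted p under 0.05. DESeq2 called 163, and leaving out 1 library gave from 19 (without DMSO 6 h replicate 2) to 167 (without DMSO 6 h replicate 3). For founder cell genes the counts were alike: 10 of 12 were lower at 6 h and 11 of 12 at 4 h, and 0 differed between the times. GATA23 stood at -5.67 at 6 h and -5.63 at 4 h, LBD16 at -2.06 and -2.25, and PUCHI at -3.21 and -3.14. DNA replication genes were lower in 17 of 18 at 6 h and in 15 of 18 at 4 h, with medians of -1.19 and -0.90, and 0 differed. Mitosis genes, by contrast, were lower in 25 of 26 at 6 h and in 6 of 26 at 4 h, with medians of -1.83 and -0.27. The MYB genes FLP and MYB88 were among the 6.

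The effect was more negative at 6 h in 14 of the 26 mitosis genes. For CDKB2;1 the difference of the 2 effects was -1.58 ± 0.24 (adjusted p = 0.0029), for CDKB2;2 -1.29 ± 0.20 (adjusted p = 0.0041), for CYCA2;4 -0.99 ± 0.14 (adjusted p = 0.0022) and for CYCA2;2 -1.55 ± 0.30 (adjusted p = 0.014). CDKB2;1 averaged 12.2 ± 1.96 CPM in DEX at 6 h and 62.9 ± 15.7 CPM in DMSO at 6 h (SD, n = 3 each), against 14.0 CPM in DEX at 4 h and 24.2 CPM in DMSO at 4 h. CYCB1;1 averaged 3.302 CPM in DEX and 12.75 CPM in DMSO at 6 h, against 4.52 and 5.77 CPM at 4 h, with a difference of -1.59 that did not pass (adjusted p = 0.18). Fitting the compared groups alone gave 0 in place of 14. The count was 5 without DEX 6 h replicate 1, 8 and 4 without DMSO 6 h replicates 1 and 2, 7 and 8 without DEX 4 h replicates 2 and 3, and 4 without DMSO 4 h replicate 2.

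**Figure D3:**
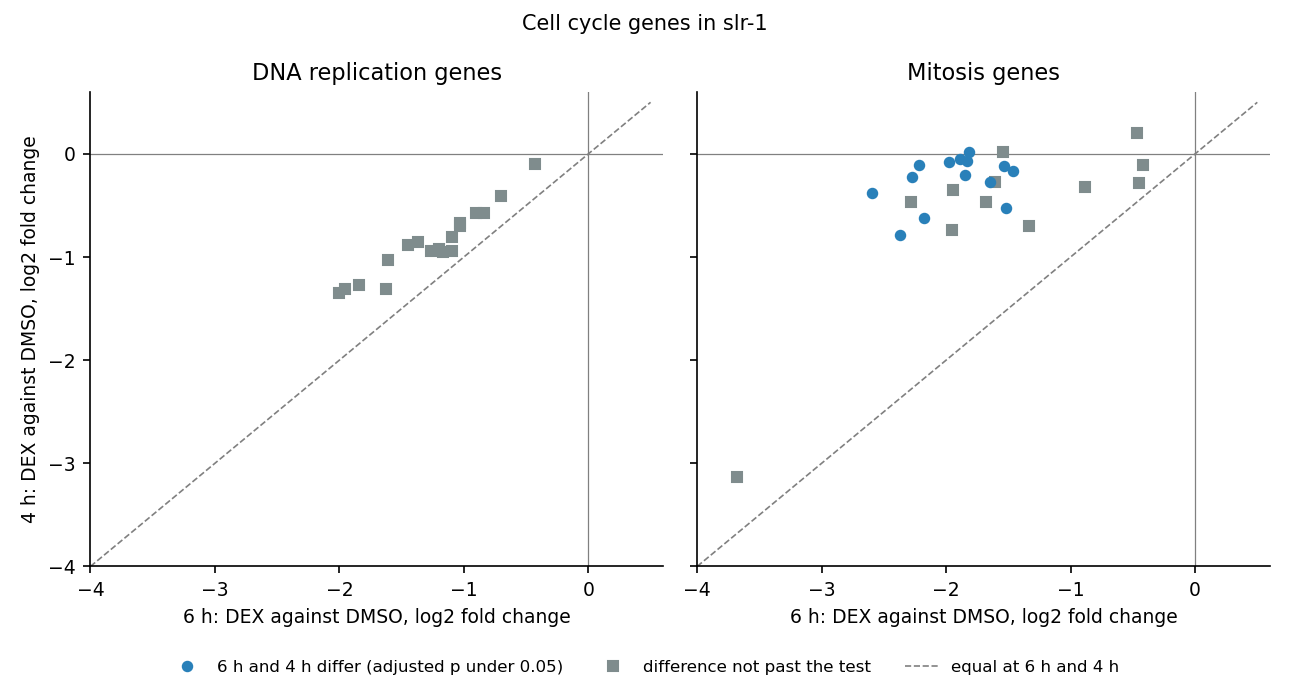
Log2 fold change of DEX against DMSO in slr-1 at 6 h (horizontal) and at 4 h (vertical) for 18 DNA replication and 26 mitosis genes; blue circles differ between the times, grey squares did not pass, and the dashed line marks equal effects. Replication genes lie a little above the dashed line, and most mitosis genes lie left of it, near 0 at 4 h. FLP is an exception, with -3.14 at 4 h.

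Among genes at 5 CPM or more on average over the libraries compared, the most negative differences between 6 h and 4 h were those of AT3G05470 (-3.01 ± 0.51), AT3G03130 (-2.63 ± 0.44), the receptor kinase gene MRLK (-2.55 ± 0.48), AT4G15830 (-2.28 ± 0.42) and WOX5 (-2.25 ± 0.43). WOX5 averaged 1.66 CPM in DEX and 12.1 CPM in DMSO at 6 h, against 2.56 and 3.87 CPM at 4 h. In the positive direction were NPF7.3 (1.97 ± 0.34), AT4G30450 (1.56 ± 0.30), DOT1 (1.52 ± 0.16), PHO1 (1.103 ± 0.192) and AT5G43180 (1.08 ± 0.23).

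Ion transporters of the stele, most of them known to load the xylem, stood at the other end. Of 7 listed genes 6 were higher and 0 lower, with a median log2 fold change of 3.12. NPF7.3 (AT1G32450), a nitrate transporter also called NRT1.5, had 754, 787 and 736 CPM in DEX and 23.8, 10.5 and 9.24 CPM in DMSO (5.71 ± 0.29, adjusted p = 6.5e-13). SKOR (AT3G02850), the outward potassium channel of the stele, had 31.5, 30.9 and 25.0 CPM in DEX and 0.957, 0.884 and 0.464 CPM in DMSO (5.24 ± 0.25, adjusted p = 1.7e-13). PHO1, the phosphate exporter, had 364, 328 and 304 CPM in DEX and 31.6, 24.2 and 29.6 CPM in DMSO (3.54 ± 0.15, adjusted p = 2.5e-14). No DEX library of these 3 genes came near a DMSO library. The zinc exporters HMA2 (3.12 ± 0.27) and HMA4 (1.60 ± 0.19) and HKT1 (3.03 ± 0.45), which is known to withdraw sodium from the xylem and not to load it, were higher too, HKT1 at a low level of 0.745, 0.763 and 0.468 CPM in DEX and 0.111, 0.0589 and 0.0633 CPM in DMSO. The boron exporter BOR1 did not pass (0.30, adjusted p = 0.44; named after its value was seen).

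The 6 h values are the end of a time course. From 0 to 1, 2, 4 and 6 h of IAA, NPF7.3 averaged 1122, 1005, 738, 723 and 759 CPM in DEX and 1110, 714, 361, 54.3 and 14.5 CPM in DMSO. PHO1 averaged 404, 303, 286, 324 and 332 CPM in DEX and 347, 192, 118, 59.7 and 28.5 CPM in DMSO. SKOR averaged 139, 75.2, 64.4, 33.0 and 29.1 CPM in DEX and 104, 12.5, 4.39, 0.550 and 0.768 CPM in DMSO. The harvest text of the labels does not list the 1 h samples. The runs were not the same at all times: DMSO at 0 h shared a run with DEX at 2, 4 and 6 h, DMSO from 1 h on came from another run, and DEX at 0 and 1 h from another again. Markers of other stele cells were counted beside them: of 8 markers of xylem vessels and secondary wall 0 passed (summed to 96.2 to 126 CPM in DEX and 94.7 to 103 CPM in DMSO), and of 6 phloem genes 2 were higher and 1 lower. The phloem count rested on single libraries: 0 were higher without DEX replicate 1 or DMSO replicate 2, 4 without DMSO replicate 3, and 1 higher and 0 lower without DMSO replicate 1.

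**Figure D4:**
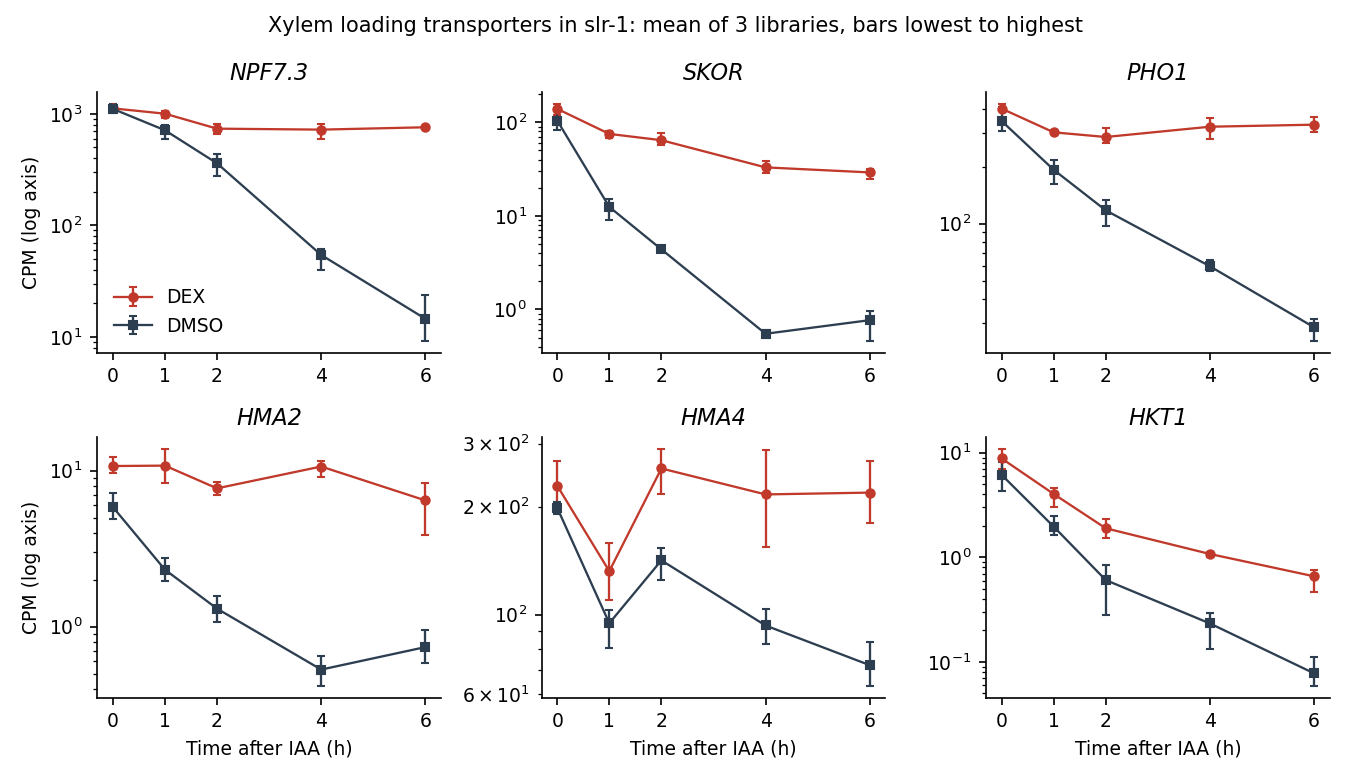
Mean CPM of 6 members of the xylem loading transporter list, in which HKT1 withdraws sodium from the xylem, over time after IAA (0 to 6 h) in DEX (red circles) and DMSO (dark squares) of slr-1, on log axes that differ between panels; bars run from the lowest to the highest of 3 libraries. The curves start closer together and lie furthest apart at 4 or 6 h, as for NPF7.3 (759 CPM in DEX and 14.5 CPM in DMSO at 6 h).

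Of 19 auxin transport genes 5 were lower and 2 higher, a share (36.8%) not far from that over all genes. The higher were 1 without DEX replicate 1, DEX replicate 3 or DMSO replicate 2. The efflux carrier gene PIN7 (-1.03 ± 0.18), the influx carriers AUX1 (-0.67 ± 0.13) and LAX3 (-0.60 ± 0.17) and the kinase gene PID (-0.59 ± 0.13) were lower, while ABCB21 was higher, at 23.29, 17.01 and 18.07 CPM in DEX and 3.98, 3.71 and 6.09 CPM in DMSO (2.08 ± 0.27). LAX3 lost its call without DEX replicate 2 or DMSO replicate 1. Of 17 genes of auxin synthesis and inactivation 5 were higher and 4 lower; the lower were 1 without DEX replicate 2 or DMSO replicate 1, and the higher 3 without DMSO replicate 2. The flavin monooxygenase genes YUC6 (1.67 ± 0.25) and YUC2 (2.25 ± 0.40, on 56 reads in DEX and 16 in DMSO) were higher. GH3.1, which conjugates IAA, was lower, at 109, 110 and 103 CPM in DEX and 427, 350 and 267 CPM in DMSO (-1.70 ± 0.19). GH3.3, of the same family, had 2216, 1422 and 1475 CPM in DEX and 2246, 2041 and 2212 CPM in DMSO and did not pass (-0.35 ± 0.25, adjusted p = 0.32).

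Of 14 genes of wall loosening and cell separation 5 were lower and 1 higher, or 0 higher without DEX replicate 3. EXPA4, an expansin gene, had 50.56, 88.57 and 95.01 CPM in DEX and 673, 629 and 432 CPM in DMSO (-2.89 ± 0.44, adjusted p = 2.4e-05). EXPA1 had 133, 112 and 120 CPM in DEX, against 455, 417 and 330 CPM in DMSO (-1.72 ± 0.27). EXPA17 (-1.70 ± 0.33), EXPA14 (-1.11 ± 0.24) and the polygalacturonase gene ADPG2 (-1.79 ± 0.48) were lower as well. Of 21 cytokinin genes 4 were higher and 3 lower, a share (33.3%) not far from that over all genes. The oxidase CKX7 stood at -2.17 ± 0.42, CKX6 at -0.88 ± 0.14, the synthesis gene IPT5 at -0.73 ± 0.13 and the response regulator ARR6 at 1.14 ± 0.22. The higher were 2 without DEX replicate 2 and 1 without DEX replicate 3. In 17 gibberellin and brassinosteroid genes 4 were higher, GA3OX2 among them (1.03 ± 0.19), and 3 lower, with DWF4 at -0.84 ± 0.15; the higher were 2 without DEX replicate 1, DEX replicate 3 or DMSO replicate 3. Ethylene genes gave 1 of 15 each way, with 2 each way without DEX replicate 1 and 0 higher without any one of the other 5 libraries. Clock genes gave 6 of 14 higher and 0 lower, with RVE8 at 0.51 ± 0.11; fitting the compared groups alone gave 1, and 3 were called without DEX replicate 1 or DMSO replicate 2. Touch and jasmonate genes gave 1 of 12 higher and detoxification genes 1 of 6, with 0 lower in each. Endodermis genes gave 1 of 8 higher and 0 lower, but 4 higher without DEX replicate 2, 3 without DMSO replicate 3 and 0 without any one of the other 4 libraries. Suberin genes gave 2 of 12 lower, heat shock genes 1 of 8 and root cap genes 1 of 3, with 0 higher in each. The suberin count was 4 without DMSO replicate 3 and 1 without DEX replicate 1, DEX replicate 2, DMSO replicate 1 or DMSO replicate 2, and the heat shock count was 0 without DEX replicate 1 or DMSO replicate 2. The sum of the suberin genes ran from 328 to 975 CPM in DEX and from 720 to 2349 CPM in DMSO.

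Genes were also ranked by fold change among those at 5 CPM or more on average whose libraries did not overlap, 286 higher and 712 lower. The highest was AT4G30460, with 55.6, 63.0 and 56.3 CPM in DEX and 0.824, 0.413 and 0.380 CPM in DMSO (6.76 ± 0.25), and its neighbour AT4G30450 was at 5.90 ± 0.24. Between them was MAM1, a synthase of the methionine chain elongation that leads to glucosinolates, at 6.19 ± 1.03. It had 5.80, 28.6 and 21.1 CPM in DEX and 0.334, 0.354 and 0.0633 CPM in DMSO, so DEX replicate 1 was far below the other DEX libraries. The same held for IPMI1 (5.44 ± 0.75) and IMS2 (4.96 ± 0.74), which serve in the same elongation, and for the aspartate kinase gene AK3 (5.68 ± 1.08). MAM1 and IMS2 are close copies, and reads between them may have been split by the counting. With SKOR and NPF7.3, the 12 were completed by MYB48 (5.54 ± 0.39), AT3G01260 (5.46 ± 0.35), AT1G49470 (5.03 ± 0.34) and AT1G49570 (4.89 ± 0.33).

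The lowest was UMAMIT15, of a family of amino acid transporters, with 4 reads in the 3 DEX libraries and 1520 in the 3 DMSO libraries. AT2G15590 had 0.259, 0.133 and 0.271 CPM in DEX and 37.2, 50.3 and 34.7 CPM in DMSO (-7.48 ± 0.28). PLT7 and GATA23 came next, before AT3G05470 (-5.66 ± 0.40), AT5G17340 (-4.82 ± 0.45), SRS5, AT1G05577 (-4.32 ± 0.34), the kinase gene RBK2 (-4.14 ± 0.32), FLP, AT2G38160 (-3.66 ± 0.36) and SKS1 (-3.34 ± 0.31).

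How did these differences relate to the auxin response itself? In the DMSO libraries of shy2-2, which are of 1 run and share no library with the slr-1 comparison, 5767 genes rose between 0 and 6 h of IAA (26.3%) and 4388 fell (20%), a contrast that holds the time passed as well as the auxin; 9.87% rose and 7.83% fell by a log2 of 1 or more. Of 2121 genes that had risen there by a log2 of 1 or more, 839 (39.6%) were lower in slr-1 under DEX and 42 higher, with a median log2 fold change of -0.52. Of 1702 that had fallen by as much, 462 (27.1%) were higher and 25 lower, with a median of 0.36. The 17765 remaining genes were higher in 12.3% and lower in 15.7%. Among the genes eligible for ranking, 534 of 712 lower ones had risen and 6 had fallen with IAA in shy2-2; of 286 higher ones 197 had fallen and 12 risen. SKOR and NPF7.3, for example, fell in shy2-2 by 6.51 and 5.06 on the log2 scale, and GATA23 and PLT7 rose by 5.51 and 5.15.

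Was the difference between DEX and DMSO alike in the line with stabilised IAA3? At 6 h in shy2-2, 1868 of 21902 genes were higher (8.53%) and 3051 lower (13.9%) in DEX. Among 21588 genes tested in both lines 3499 passed in both. Of these, 3493 had the same sign, which is 55.0% of the slr-1 calls and 71.3% of the shy2-2 calls. In shy2-2 too the DEX and DMSO libraries came from separate runs, other than those of slr-1. Differences between the lines in the DEX effect therefore cannot be told apart from differences between runs. Founder cell genes were lower in 10 of 12 in slr-1 and in 10 of 12 in shy2-2, mitosis genes in 25 and 22 of 26, and DNA replication genes in 17 and 14 of 18. Xylem loading transporters were higher in 6 and 5 of 7. GATA23 stood at -5.67 ± 0.24 in slr-1 and -5.96 ± 0.33 in shy2-2, LBD16 at -2.06 ± 0.12 and -2.04 ± 0.13, and PUCHI at -3.21 ± 0.17 and -3.01 ± 0.38.

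The difference between the lines itself passed in 41 of 22268 genes (0.184%), 33 (0.148%) more positive and 8 (0.0359%) more negative in slr-1, with 1859 (8.35%) at an unadjusted p under 0.05; DESeq2 called 84. Founder cell, mitosis and replication lists held 0 of them, and the transporters 2. The effect on NPF7.3 was larger in slr-1 by 1.54 ± 0.31 (adjusted p = 0.014) and that on PHO1 by 1.24 ± 0.22 (adjusted p = 0.0033). The effect on PLT7 was more negative in slr-1, by a difference of -2.14 ± 0.45 (adjusted p = 0.019), with -6.42 in slr-1 and -4.32 in shy2-2. Among genes at 5 CPM or more on average over the libraries compared, AT2G07875 differed most, at 1.48 in slr-1 and -1.52 in shy2-2 (2.96 ± 0.57, adjusted p = 0.0096). UMAMIT17 (2.22 ± 0.41), GRP9 (2.00 ± 0.42), AT4G30450 (1.99 ± 0.36) and AT4G30460 (1.92 ± 0.40) followed, and AT3G05470 (-2.49 ± 0.56), AT2G42150 (-2.43 ± 0.44) and AT1G05577 (-2.14 ± 0.46) were more negative in slr-1. A gene that missed this test is not thereby shown to respond alike in the lines. When only the compared groups were fitted, 1 gene passed, and leaving out 1 library gave from 15 (without shy2-2 DMSO replicate 1) to 122 (without shy2-2 DMSO replicate 2).

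**Figure D5:**
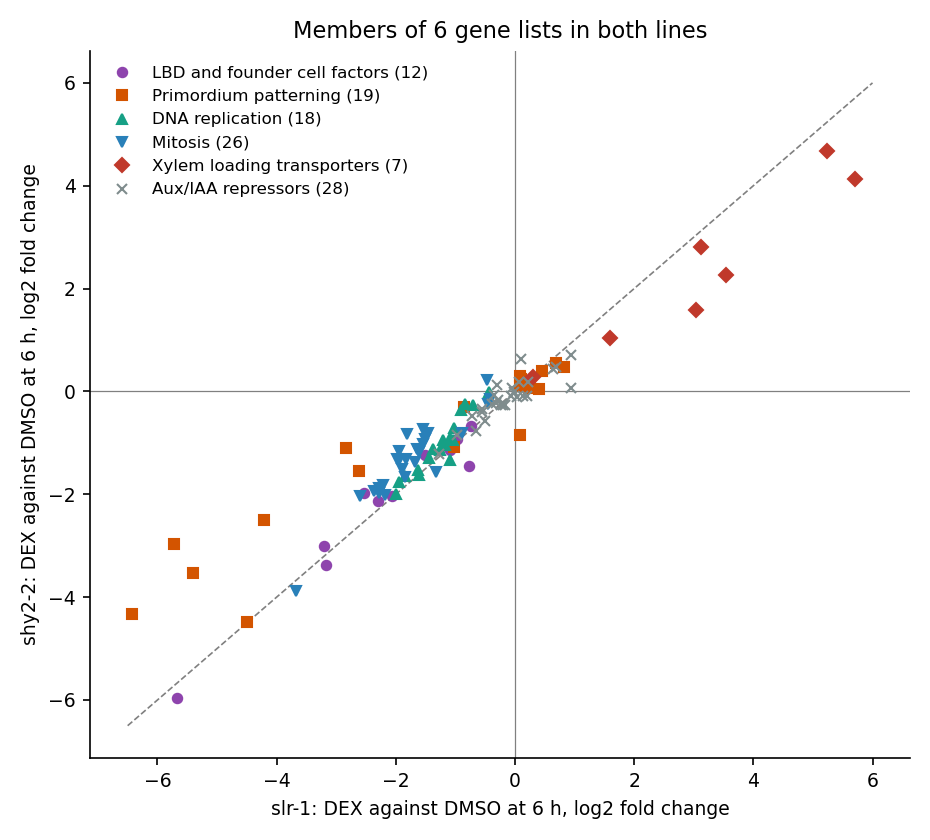
Log2 fold change of DEX against DMSO at 6 h in slr-1 (horizontal) and in shy2-2 (vertical) for the tested members of 6 gene lists (number in brackets); the dashed line marks equal effects. Founder cell genes lie close to the line, and transporters such as NPF7.3 (5.71 in slr-1, 4.13 in shy2-2) and the gene PLT7 (-6.42 and -4.32) lie further from 0 in slr-1.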

How the data were processed

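The deposited files hold raw read counts per gene, in the layout of a STAR gene count file. STAR 2.5.2b, DESeq2 and TAIR10 are named per the submitters' processing notes; the annotation, filters and strand setting are not given in the sources used here. The authors deposited these counts in 3 columns, and column 4 was used, which held 95.6 to 96.3% of the counts on either strand in the 6 libraries. Reads not assigned to a gene made up 6.29 to 7.50% in DEX and 6.00 to 6.71% in DMSO and were left out of library sizes and tests.

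Groups were taken from the sample titles. Counts of the 30 slr-1 libraries in 10 groups were fitted with edgeR 4.0.16 in R 4.3.3 (TMM scaling, genes kept by filterByExpr, robust quasi-likelihood test), and p-values were adjusted by Benjamini-Hochberg over all genes tested. Differences between lines came from a fit of all 60 libraries, and those between 6 h and 4 h from the slr-1 fit. CPM are on the TMM scale. Standard errors are the log2 fold change divided by the square root of F. The fit was tested on simulated data. No 2 replicates were alike within sampling noise.

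Named genes were genes listed by name, up to 6 of each list by adjusted p, and ranked genes past a log2 of 1 and 5 CPM, 12 each way (5 each way for differences, with no condition on overlap). The comparison, members and lists were chosen with earlier results of these data known. Of 360 list entries 348 matched a locus in RefSeq's TAIR10.1. Replicate numbers do not pair the libraries. Alternatives were other scaling and filters, a replicate block, DESeq2 1.42.0, other sets of libraries and leaving out each replicate.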

Additional observations from a re-analysis of the deposited data

Results flagged for a closer look

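These results were singled out because an effect of DEX differed between the lines or between the times by a test of the difference itself (edgeR's quasi-likelihood test, adjusted p under 0.05). Between slr-1 and shy2-2 at 6 h, the log2 effect was more positive in slr-1 for AT2G07875 (2.96), UMAMIT17 (2.22), GRP9 (2.00), AT4G30450 (1.99), AT4G30460 (1.92), NPF7.3 (1.54), PHO1 (1.24) and AT5G43180 (1.14). It was more negative in slr-1 for AT3G05470 (-2.49), AT2G42150 (-2.43), PLT7 (-2.14) and AT1G05577 (-2.14). GRP9 stood at 2.63 in slr-1 and 0.58 in shy2-2, and AT2G42150 at -3.06 and -0.69.

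Between 6 h and 4 h in slr-1, the effect was more positive at 6 h for NPF7.3 (1.97), AT4G30450 (1.56), DOT1 (1.52), PHO1 (1.1) and AT5G43180 (1.08). It was more negative at 6 h for AT3G05470 (-3.01), SHI (-2.88), AT3G03130 (-2.63), AT1G05577 (-2.58), MRLK (-2.55), AT2G38160 (-2.46), AT4G15830 (-2.28), WOX5 (-2.25) and RBK2 (-1.92). The mitosis genes CDKB2;1 (-1.58), CYCA2;2 (-1.55), CDKB2;2 (-1.29) and CYCA2;4 (-0.99) were of the same sign.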

How the results depend on the processing

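For DEX against DMSO at 6 h in slr-1, the count of 6397 genes lay between 4496 (only the compared groups fitted) and 7040 (replicate block) under the alternatives run, and between 4798 and 6904 when 1 library was left out. Same-numbered DEX and DMSO libraries correlated at -0.49, 0.36 and -0.75 in their deviations from the group means, so the replicate block uses numbers that do not pair the samples. Libraries of unlike number ran from -0.49 (DEX replicate 1 with DMSO replicate 2) to 0.72 (DEX replicate 3 with DMSO replicate 1). DEX replicate 1 with DMSO replicate 3 stood at 0.65. Each DEX library thus correlated most with a different DMSO library, replicate 1 with 3, 2 with 2 and 3 with 1. A fit that pairs them in this order was not run. Among the called genes named by the rule, 23 lost their call under at least 1 of 14 alternatives, and the direction of none of the results reversed.

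The differences of effects depended most on the setting, and the cause was not tested. For 6 h minus 4 h, 87 genes became 53 without the libraries above 6 in mean log2(CPM + 1) of photosynthesis genes. These were replicates 1 and 2 of DEX at 0 h and replicates 1 and 3 of DMSO at 2 h. No library at 4 h or 6 h was among them, so DMSO 6 h replicate 3 was kept. Fitting the compared groups alone gave 1, DESeq2 gave 163, and dropping 1 library gave 19 to 167. At 6 h, dropping DEX replicate 1 gave 22, DEX replicate 2 gave 50 and DMSO replicate 1 gave 35; at 4 h, dropping DEX replicate 2 gave 37, DEX replicate 3 gave 31 and DMSO replicate 2 gave 21. For slr-1 minus shy2-2, 41 genes became 1 when only the compared groups were fitted, 84 by DESeq2 and 15 to 122 when 1 library was left out. It was 18 and 27 without slr-1 DEX and DMSO replicate 2, and 21 without shy2-2 DEX replicate 1. For DEX against DMSO at 6 h in shy2-2, 4919 genes became 2101 when only the compared groups were fitted and 3225 to 5187 when 1 library was left out, the lowest without DEX replicate 1. Genes near 0 CPM in a group, such as STY1 with 6 reads in DEX, have fold changes that rest on few counts.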
